A study of Mus musculus with 6 samples.

Results

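The polymerase pair consists of the libraries named Q5_vent and Q5_Q5, which together held 34524 of the 228609 deduplicated sequences of the series and were 2 of its 6 libraries. Both were chosen by their names, and every sequence of each entered. The source of all libraries was genomic DNA from B cells of the spleen of C57BL/6 mice at 12 weeks of age, the cells having been enriched by magnetic removal of other cell types. The rearranged immunoglobulin heavy-chain (Igh) genes were read by VDJ-seq, a method that captures joined V, D and J segments in DNA with primers in the J genes. The names of the pair refer to DNA polymerases. The sources used here give neither the preparation step that each part of a name stands for nor the amount of DNA behind the pair. The other 4 libraries differ in starting DNA, which was 500 ng, 1 µg, 2.5 µg or 5 µg, and serve here as a background.

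Q5 is a proofreading DNA polymerase that copies with very few base errors, and Vent is another heat-stable DNA polymerase with a proofreading activity. A base that differs from the germline V gene can come from copying in the tube, from somatic hypermutation by the enzyme AID, from an allele missing from the reference set, or from an alignment that runs into the bases added at random by terminal transferase (TdT) between gene segments. A unique molecular identifier, a random stretch of bases joined to each molecule before amplification, lets reads of the same molecule be grouped into 1 sequence.

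Q5_vent held 19490 sequences and Q5_Q5 held 15034, with a median aligned V length of 167 and 169 bases. The number at the end of each sequence name, read here as its number of grouped reads, was at least 3 in Q5_vent and at least 4 in Q5_Q5. With 1 library per polymerase combination there is no replicate check and no test between conditions. Intervals are at the 95% level and account for counting error alone.

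Some of the differing bases can be shown directly. Positions are counted from 1 at the 5′ end of the germline gene, as the files' alignment traces count them, and a change is written as germline base, position, sequenced base. The first 3 stretches are germline V sequence around positions at which nearly all sequences that were called to that allele and reached the position differed from the reference in both libraries, with that position in capitals. For Ighv5-4 this concerns 18 of the 513 sequences of the gene in the pair, those called to allele 02.
Ighv2-6-1, bases 55 to 85, A70G: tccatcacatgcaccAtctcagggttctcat
Ighv5-4, bases 263 to 293, T278C: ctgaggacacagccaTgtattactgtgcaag
Ighv2-6-5, bases 198 to 228, G213A: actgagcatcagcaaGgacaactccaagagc

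The next lines show the 3′ end of Ighv1-64, where the V alignment meets the junction, first as germline and then as read in 1 sequence of each library. The capital marks germline base 292, the base 3 from the end of the V alignment, at which mismatches were most frequent.
Ighv1-64 germline, bases 270 to 294: ctctgcggtctattactgtgcaAga
Ighv1-64 in a Q5_vent sequence: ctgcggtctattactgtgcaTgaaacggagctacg
Ighv1-64 in a Q5_Q5 sequence: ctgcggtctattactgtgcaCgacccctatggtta

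Across sequences with at most 2 V mismatches, mismatched V bases were fewer in Q5_Q5. Q5_vent carried 1314 mismatches in 3418802 aligned V bases, or 38.4 per 100000. Q5_Q5 carried 490 in 2652540, or 18.5 per 100000. The ratio of Q5_Q5 to Q5_vent was 0.481 (interval 0.432 to 0.534). This limit set aside 1.64% of the sequences of Q5_vent and 1.68% of those of Q5_Q5, which had more mismatches. With them included the rates were 114.8 and 93.6 per 100000 and the ratio was 0.816 (interval 0.776 to 0.858).

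The aligned bases were then divided into 4 classes, chosen after the values were seen. These were the last 10 aligned V bases next to the junction, the first 10, V sites recurrently mismatched in the input libraries, and all remaining bases, called scattered. A site was recurrent where at least 2% of the sequences covering it, and at least 3 sequences, were mismatched over the 4 input libraries, so that the pair itself did not define it. There were 232 such sites, and 60 of them were mismatched in the pair.

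Scattered mismatches differed most. Q5_vent had 780 in 3034187 bases, or 25.7 per 100000, and Q5_Q5 had 115 in 2355936, or 4.88 per 100000. Their ratio was 0.190 (interval 0.155 to 0.231). The 500 ng library had 32.0 per 100000, the 1 µg library 29.4, the 2.5 µg library 30.0 and the 5 µg library 27.5. Q5_vent thus lay just below the range of the input libraries, and Q5_Q5 lay far below all 5 other libraries. At least 1 scattered mismatch was present in 3.79% of the sequences of Q5_vent, in 0.636% of those of Q5_Q5 and in 4.14% to 4.80% of those of the input libraries.

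In the other classes the libraries lay closer. At recurrent sites 95 of 1216 bases were mismatched in Q5_vent and 79 of 987 in Q5_Q5, a ratio of 1.02 (interval 0.750 to 1.40). In the last 10 aligned V bases the rates were 182 and 169 per 100000, a ratio of 0.929 (interval 0.787 to 1.10). In the first 10 they were 46.9 and 31.1, a ratio of 0.663 (interval 0.454 to 0.956). Scattered mismatches therefore made up 59.4% of all mismatches in Q5_vent and 23.5% in Q5_Q5, while the last 10 bases made up 26.6% and 51.0%.

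**Figure D1:**
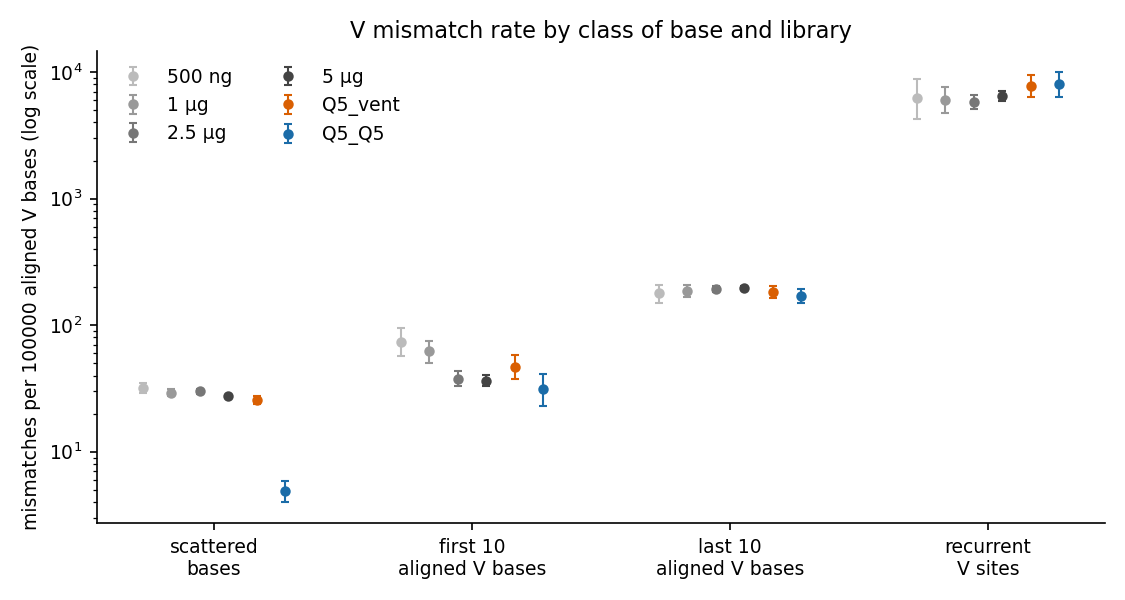
Mismatches per 100000 aligned V bases (log axis) in each of 4 classes of V base for the 4 input libraries (grey), Q5_vent (orange) and Q5_Q5 (blue), with 95% Poisson intervals, in sequences with at most 2 V mismatches. Q5_Q5 stands apart at scattered bases, with 4.88 per 100000 against 25.7 in Q5_vent, and overlaps Q5_vent at recurrent sites and in the last 10 bases.

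The recurrent sites behaved alike in both libraries. Sites are counted per allele, over the sequences whose alignment reaches them. Of the 5 V sites named for having most mismatches in the pair, A70G of Ighv2-6-1 was present in all 22 covering sequences of Q5_vent, all 14 of Q5_Q5 and all covering sequences of the input libraries. G213A of Ighv2-6-5 was present in 9 of 9 and 6 of 6. T278C of Ighv5-4 allele 02 was present in 8 of 9 in each library. C295G of Ighv5-4 allele 03, at the V end, was present in 6 of 14 and 9 of 13. A227G of Ighv5-6-4, in 10 of 10 and 5 of 5, tied with G213A and C295G at 15 in the pair. These counts are small, and Ighv5-4 and Ighv2-6-5 have near-identical neighbours to which reads could be assigned. The remaining site, A292T of Ighv1-64, was not recurrent by the rule and was found in 13 of 479 sequences of Q5_vent (2.71%) and 5 of 400 of Q5_Q5 (1.25%), with a ratio of 0.461 (interval 0.129 to 1.38).

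At the V end the mismatches fell on particular bases. Neither library had any mismatch in the last 2 aligned V bases. Positions are counted within the alignment, and a differing base at its very end can be left out of it. Such an absence therefore cannot show that the bases next to the junction matched germline. At base 3 from the end there were 203 in Q5_vent and 169 in Q5_Q5, or 1059 and 1143 per 100000, a ratio of 1.08 (interval 0.875 to 1.33). At base 4 there were 69 and 42, at base 5 there were 29 and 22, and at base 6 there were 21 and 6. The kinds of change in the last 10 bases were also close, with A-to-G at 27.5% of these mismatches in Q5_vent and 28.0% in Q5_Q5, and A-to-C at 20.3% and 24.4%. The 5′ end had the same pattern on a smaller scale, with no mismatch in the first 2 aligned bases and 31 and 18 at base 3.

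The J side mirrored it. J genes supply the last coding bases of the variable region, and the primers lie in them. Q5_vent had 309 J mismatches, or 52.0 per 100000 aligned J bases, and Q5_Q5 had 227, or 49.0 per 100000, a ratio of 0.943 (interval 0.791 to 1.12). The first 4 aligned J bases held none in either library, with the same limit as at the V end. At the fifth aligned J base there were 198 in Q5_vent and 172 in Q5_Q5, and at the sixth there were 63 and 33. Beyond the first 6 aligned J bases the counts were 48 and 22, a ratio of 0.587 (interval 0.337 to 0.991). Beyond the first 10 they were 4 in 399704 bases and 0 in 313088, so that J sequence away from the junction was nearly free of mismatches in both libraries. This interior J rate in Q5_vent, 1.00 per 100000, was 0.0389 times the scattered V rate of the same library (interval 0.0106 to 0.100). The J rate is over all sequences, and the V rate over those with at most 2 V mismatches. In the input libraries the same J rate was 2.24 to 4.15 per 100000, and J over V was 0.0699 to 0.151. J bases next to the primer may be copied from the primer, so the J and V rates may not count the same errors. How many interior J bases this concerns was not tested.

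**Figure D2:**
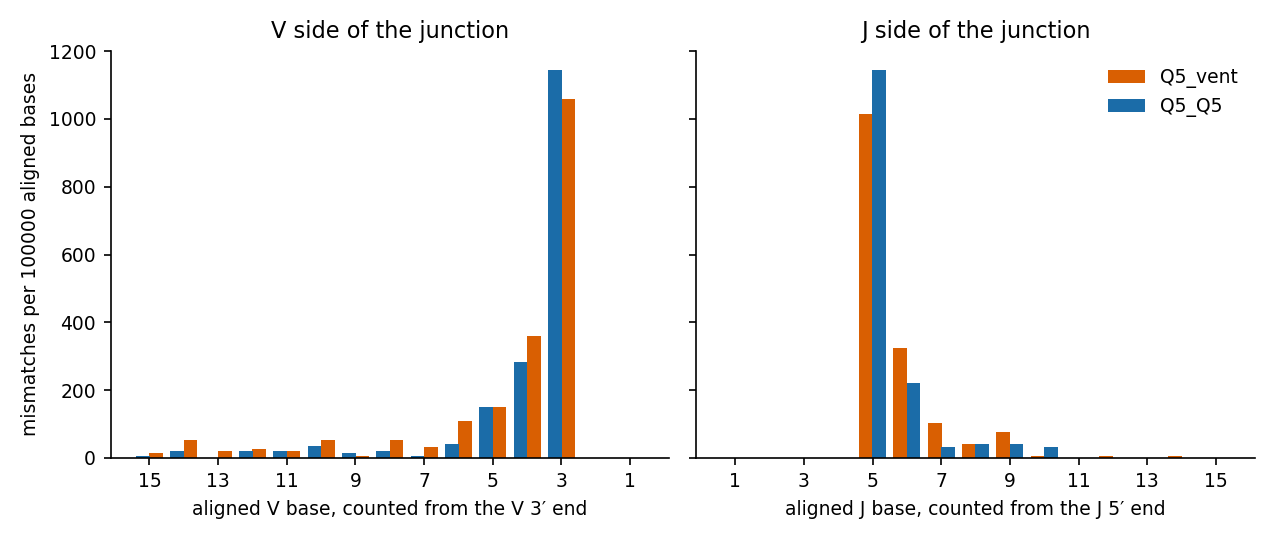
Mismatches per 100000 aligned bases at each aligned V base counted from the V 3′ end (left, junction at the right) and at each aligned J base counted from the J 5′ end (right, junction at the left), for Q5_vent (orange) and Q5_Q5 (blue). Both libraries peak at V base 3, at 1059 and 1143 per 100000, and at J base 5. Both have none in the aligned V bases and J bases nearest the junction, where a differing base can fall outside the alignment.

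Among J genes, Ighj1 (chromosome 12, 113429781 to 113429833 in GRCm38) carried the most J mismatches, with 159 in Q5_vent and 132 in Q5_Q5, a ratio of 1.05 (interval 0.827 to 1.33). Most of these were the change T5G, counted from the start of germline J. It was present in 119 of 2537 covering sequences of Q5_vent (4.69%) and 105 of 1975 of Q5_Q5 (5.32%), a ratio of 1.13 (interval 0.863 to 1.49), and in 4.87% to 6.45% of those of the input libraries. Ighj2 had 81 and 47 J mismatches, a ratio of 0.792 (interval 0.541 to 1.15). The intervals of Ighj3 and Ighj4 also included 1. For V bases joined to each J gene, the scattered rate was lower in Q5_Q5 for all 4, with ratios from 0.141 for Ighj4 to 0.257 for Ighj3.

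The sequences end inside J at the same bases in nearly every case. The stretch from the conserved tryptophan codon, printed in capitals, to the last base read is shown for each J gene in its most frequent form in the pair, because its last 12 bases are shared by nearly all sequences of that gene.
Ighj1: TGGggcacaggg
Ighj2: TGGggccaaggcaccact
Ighj3: TGGggccaagggactctggt
Ighj4: TGGggtcaaggaacctca

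These last 12 bases differed in 4 of the 19490 sequences of Q5_vent and in 1 of the 15034 of Q5_Q5. The tag in the sequence name named another J gene than the J call in 0.544% of Q5_vent (interval 0.450% to 0.657%) and 0.220% of Q5_Q5 (interval 0.156% to 0.308%). Both libraries of the pair lay below the input libraries on these features. In the input libraries the last 12 bases differed in 0.257% to 0.369% of sequences, and the tag named another J gene in 2.42% to 2.88%.

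Along the V alignment, scattered mismatches were fewer in Q5_Q5 at every distance measured. Bins of 25 bases were counted from the 3′ end, and those with at least 20 mismatches over both libraries were compared. All 11 such bins had a ratio whose interval lay below 1. The Q5_vent rate ranged from 19.6 to 32.0 per 100000 over these bins. The Q5_Q5 rate ranged from 0 to 9.49, with 0 in 114334 bases between 226 and 250 bases from the end, where Q5_vent had 37 in 143775. The ratio closest to 1 lay next to the junction, in bases 11 to 25, with 92 mismatches in Q5_vent and 21 in Q5_Q5 and a ratio of 0.296 (interval 0.175 to 0.480), near the 0.288 of bases 101 to 125. Over all aligned bases the bin of the last 25 had a ratio of 0.807 (interval 0.694 to 0.938), and this bin holds the V end.

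**Figure D3:**
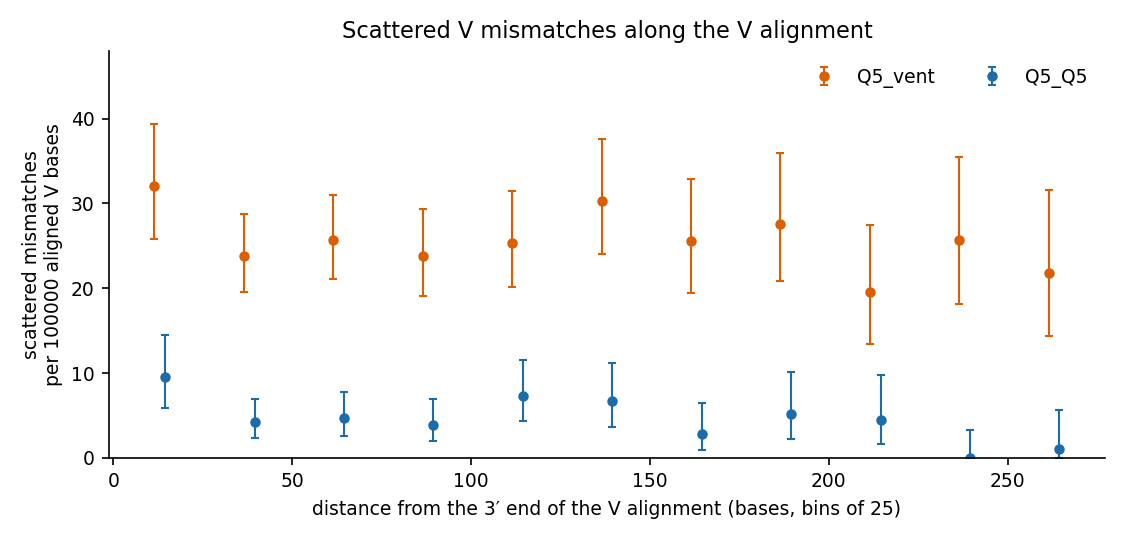
Scattered mismatches per 100000 aligned V bases in bins of 25 bases by distance from the 3′ end of the V alignment, for Q5_vent (orange) and Q5_Q5 (blue), with 95% Poisson intervals; the first bin holds bases 11 to 25 only. The Q5_vent bins lie between 19.6 and 32.0 and the Q5_Q5 bins between 0 and 9.49.

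By kind of base change, the fall in scattered mismatches was broad but uneven. Rates are per 100000 aligned bases of the germline letter, on the coding strand. G-to-A was the most frequent change in both libraries, at 23.9 in Q5_vent and 3.68 in Q5_Q5, a ratio of 0.154 (interval 0.0930 to 0.243). G-to-T, a change often linked to oxidised guanine, stood at 13.9 and 1.75, a ratio of 0.126. C-to-A was 7.76 and 0.691, a ratio of 0.0891. A-to-T was 13.8 and 2.11, a ratio of 0.153 (interval 0.0810 to 0.267), and T-to-A had the lowest ratio of the 12 kinds, 0.0806 (interval 0.00936 to 0.316).

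The changes nearest to equal were A-to-C and A-to-G. A-to-G was 4.57 in Q5_vent and 2.26 in Q5_Q5, a ratio of 0.495 (interval 0.254 to 0.919). A-to-C had a ratio of 0.515 (interval 0.196 to 1.22) on 20 and 8 mismatches, and C-to-G a ratio of 0.323 (interval 0.0334 to 1.62). These 2 were the kinds whose interval included 1, and the other 10 of the 12 lay below it. C-to-T, the change that deamination of cytosine gives, was 9.37 and 2.59, a ratio of 0.277 (interval 0.147 to 0.488). Over all aligned bases, V ends and recurrent sites included, 8 of the 12 kinds had an interval below 1. There A-to-C had a ratio of 1.01 (interval 0.735 to 1.38) and C-to-G 1.21 (interval 0.711 to 2.06). A-to-G had 0.812 (interval 0.637 to 1.03) and T-to-G 0.547 (interval 0.271 to 1.05).

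**Figure D4:**
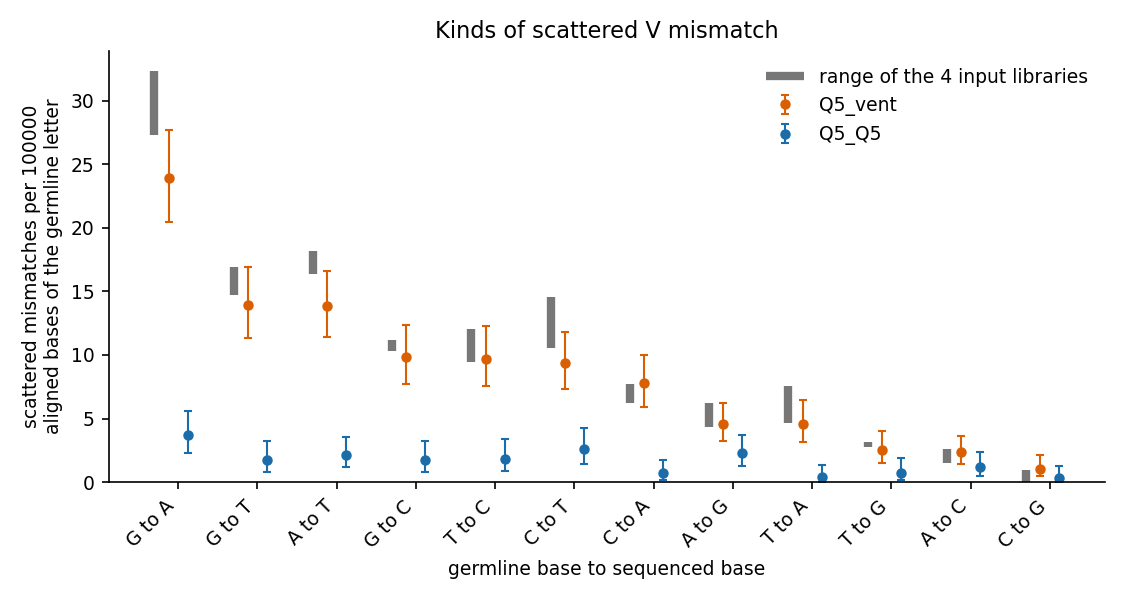
Scattered mismatches per 100000 aligned bases of the germline letter for each of 12 base changes, for Q5_vent (orange) and Q5_Q5 (blue) with 95% Poisson intervals; grey bars span the 4 input libraries. Q5_vent lies on or near the grey bars, with G-to-A highest at 23.9, and Q5_Q5 stays at or below 3.68 for every change.

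A change and its complement describe the same event on opposite strands, so unequal rates mark a strand asymmetry. In Q5_vent, G-to-A was 2.55 times as frequent as C-to-T (interval 1.92 to 3.41). A-to-T was 3.03 times as frequent as T-to-A (interval 2.03 to 4.63), and G-to-C 9.17 times as frequent as C-to-G (interval 4.41 to 22.0). A-to-G ran the other way, at 0.471 times T-to-C (interval 0.309 to 0.709). In the input libraries G-to-A over C-to-T was 2.21 to 2.67, A-to-T over T-to-A 2.40 to 3.67, and A-to-G over T-to-C 0.360 to 0.563. In Q5_Q5, G-to-A over C-to-T was 1.42 (interval 0.696 to 2.96) and A-to-G over T-to-C was 1.23 (interval 0.517 to 3.06). A-to-T over T-to-A in Q5_Q5 was 5.74 (interval 1.32 to 52.0). Each asymmetry of Q5_Q5 was divided by that of Q5_vent for the 6 complementary pairs. The A-to-G over T-to-C asymmetry was 2.61 times that of Q5_vent (interval 1.07 to 6.37), on 15 and 10 mismatches in Q5_Q5. The intervals of the other 5 included 1, among them G-to-A over C-to-T at 0.556 (interval 0.271 to 1.14). These intervals are not adjusted for the 6 comparisons.

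The bases around a scattered mismatch differed more clearly. AID acts preferentially on certain short motifs, and the error-prone repair of its lesions favours others. The first motif group is the C of AAC, AGC, TAC and TGC with, on the opposite strand, the G of GTT, GCT, GTA and GCA. These made up 27.2% of the scattered C and G bases in Q5_vent and 27.3% in Q5_Q5. They held 162 of 485 mismatches at C and G in Q5_vent, 33.4%, and 37 of 62 in Q5_Q5, 59.7%. Within Q5_vent the rate in these motifs was 40.2 per 100000 against 30.0 at other C and G, a ratio of 1.34 (interval 1.10 to 1.62). Within Q5_Q5 it was 11.8 against 2.99, a ratio of 3.95 (interval 2.31 to 6.84). The motif ratio of Q5_Q5 was 2.95 times that of Q5_vent (interval 1.71 to 5.06).

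The second group is the A of AA and TA with the T of TT and TA, which made up 39.1% of A and T bases in each library. Within Q5_vent the rate there was 20.2 per 100000 against 18.2 at other A and T, a ratio of 1.11 (interval 0.876 to 1.41). Within Q5_Q5 it was 6.99 against 2.72, a ratio of 2.57 (interval 1.43 to 4.72). The motif ratio of Q5_Q5 was 2.31 times that of Q5_vent (interval 1.26 to 4.21). Over all aligned bases it was 1.34 times (interval 1.02 to 1.76). In both groups the mismatches that were fewest in Q5_Q5, relative to Q5_vent, lay outside the motifs, with a ratio of 0.0997 at other C and G and 0.150 at other A and T, against 0.294 and 0.346 within them. The context AGC, counted at its middle G and not at the C of the motif, had 63 mismatches in Q5_vent and 15 in Q5_Q5. Of these, 35 and 11 were G-to-A. That G belongs to the first group only where it begins GCT or GCA. CpG bases, where methylated cytosine can deaminate, fell from 29 to 2, a ratio of 0.0894 (interval 0.0103 to 0.353).

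By V gene, 35 genes had at least 20 mismatches over both libraries in all aligned bases. A gene was called lower or higher where the interval of its ratio excluded 1 and the ratio was at least 1.5-fold. Of the 35, 18 were called lower in Q5_Q5, 51.4% of those tested, and 0 higher. The ratios of the 35 ran from 0.134 to 1.28 with a median of 0.405, and 33 of 35 were below 1. The share called depends on the minimum, which favours genes with many mismatches in Q5_vent. Genes with near-equal counts below it, such as Ighv1-39 with 9 and 9, were not tested. With a minimum of 10, 22 of 64 genes were called lower and 0 higher. At scattered bases 9 genes had enough mismatches, and 9 were called lower, 100% of those tested. The minimum sums both libraries, so genes reached it there mainly through Q5_vent, as Ighv1-26 did with 32 and 1. Genes with few but near-equal scattered counts, such as Ighv4-1 with 4 and 4, were not tested. This share was thus largely set by the filter and does not show how many genes differ.

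Ighv1-26 (chromosome 12, 114788372 to 114788665 in GRCm38) had the most aligned bases and carried 42 mismatches in Q5_vent and 8 in Q5_Q5, or 24.5 and 5.47 per 100000, a ratio of 0.224 (interval 0.0907 to 0.482). At its scattered bases there were 32 and 1. Ighv3-6 (114288152 to 114288447), the next by aligned bases, had 55 and 26, a ratio of 0.658 whose interval of 0.396 to 1.07 included 1, while its scattered mismatches numbered 33 and 5. Ighv1-82 had 18 scattered mismatches in Q5_vent and 0 in 61777 bases of Q5_Q5. Ighv1-18 was the other of the 10 genes with most aligned bases that was not called, with 18 and 8 mismatches and a ratio of 0.544 (interval 0.205 to 1.31).

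The lowest ratio of a called gene was 0.134 for Ighv1-52 (interval 0.0151 to 0.559), on 18 and 2 mismatches. Ighv3-8 followed with 18 and 2 and a ratio of 0.149, and Ighv1-69 with 23 and 3 and a ratio of 0.167. Ighv8-12 had 30 and 5, a ratio of 0.194, and none of its 5 in Q5_Q5 were scattered. At the other end, Ighv1-4 had 19 and 14 mismatches and a ratio of 1.28 (interval 0.593 to 2.69), and Ighv5-4, which carries the recurrent sites shown above, 33 and 25 and a ratio of 1.05 (interval 0.597 to 1.82). Ighv2-6-1, whose A70G was present in every sequence that reached it, had 24 and 17 and a ratio of 0.939. These last 3 were named after their values were seen.

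**Figure D5:**
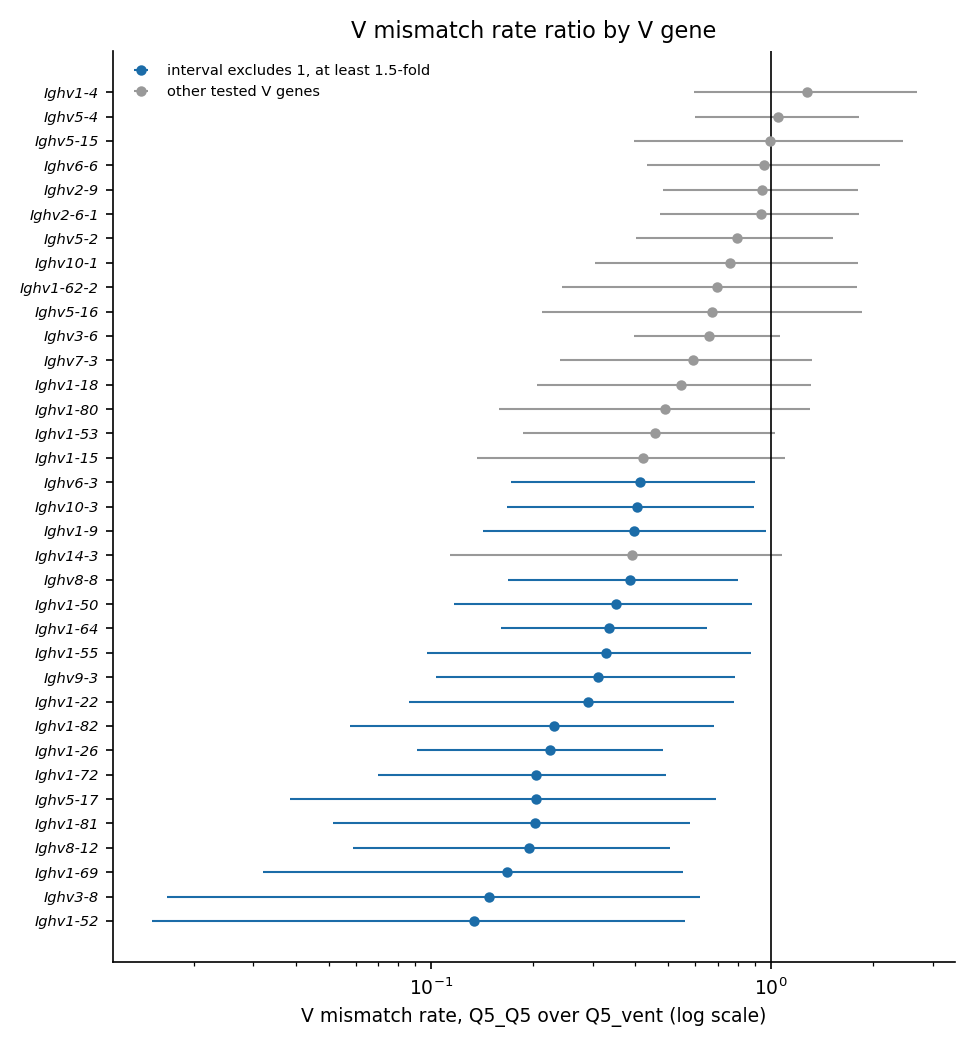
Ratio of V mismatch rates, Q5_Q5 over Q5_vent (log axis), with its 95% interval for each of the 35 V genes with at least 20 mismatches over both libraries in all aligned bases. Blue marks the 18 genes whose interval excluded 1, all below it, and grey the other 17, with Ighv1-4 at 1.28 the highest.

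By V family, scattered rates were lower in Q5_Q5 in all 9 families tested, those with at least 20 scattered mismatches over both libraries. Families below this minimum were left out, and it favours families with many mismatches in Q5_vent. One left out was Ighv4, with 4 and 4 scattered mismatches in Ighv4-1 and 2 and 1 in Ighv4-2. Ighv1, the largest mouse family, had 422 and 56 scattered mismatches, a ratio of 0.171 (interval 0.127 to 0.226). Ighv8 had 42 and 1, a ratio of 0.0302 (interval 0.000747 to 0.178), and Ighv5 77 and 18, a ratio of 0.313 (interval 0.176 to 0.528). The intervals of Ighv8 and Ighv5 overlap, and the difference between families was not tested.

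The overall ratio differed by the flag for productive rearrangements, which are in frame and free of stop codons. At scattered bases no such difference was resolved. Over all aligned bases Q5_Q5 was at 0.433 times Q5_vent in productive sequences (interval 0.378 to 0.495) and at 0.587 times in the others (interval 0.494 to 0.695). The first ratio was 0.738 times the second (interval 0.596 to 0.914). At scattered bases the ratios were 0.196 and 0.174, and the first was 1.13 times the second (interval 0.721 to 1.77). That interval includes both 1 and 0.738, on 29 mismatches in the other sequences of Q5_Q5, so it cannot tell them apart. Recurrent sites and the V end weighed more in the other sequences. In the last 10 bases the rates were 281 and 271 per 100000 in the others, against 146 and 135 in productive sequences.

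Sequences in frame but with a stop codon, which a base error can create, were 4.68% of Q5_vent and 4.11% of Q5_Q5, a difference of -0.574 percentage points (interval -1.01 to -0.136). Without sequences whose primer tag was marked unclear the difference was -0.349 (interval -0.794 to 0.101). Over all tags, 12.3% of the Q5_vent sequences in frame with a stop codon carried 1 or 2 V mismatches, against 5.56% of productive ones. In Q5_Q5 the shares were 5.18% and 2.32%.

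The lower scattered rate held across read support, primer tags and anchors. In bins of reads per sequence, ratios were 0.210 at 3 to 4 reads, 0.127 at 5 to 7, 0.217 at 8 to 11, 0.239 at 12 to 16 and 0.165 at 17 or more, and each interval lay below 1. Within Q5_vent the scattered rate lay between 23.0 and 30.3 per 100000 over these bins. Within Q5_Q5 it was 6.35, 3.23, 5.04, 6.10 and 3.80 from the fewest to the most reads, with no steady course, and the first bin held 6 mismatches. The sequences carry 1 of 2 anchor sequences beside the identifier, and the ratios were 0.203 for one and 0.178 for the other. Among sequences whose primer tag was marked unclear the ratio was 0.143 (interval 0.0601 to 0.291), and among the rest 0.196 (interval 0.158 to 0.240).

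The molecular identifiers, which lie outside the aligned V and J bases, gave a separate count. Where 2 sequences of a library had the same anchor and an identical insert, their 12-base identifiers were compared. An example from each library shows such a pair, with the differing base in capitals.
Q5_vent, Ighv1-18 with Ighj2, 9 reads: cctggCaacaca
Q5_vent, the same insert, 8 reads: cctggTaacaca
Q5_Q5, Ighv2-6 with Ighj3, 16 reads: gtgaAgcacttc
Q5_Q5, the same insert, 5 reads: gtgaTgcacttc

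In Q5_vent 67 of 74 such pairs differed at a single base, or 3.44 per 1000 sequences (interval 2.66 to 4.37). In Q5_Q5 5 of 6 did, or 0.333 per 1000 (interval 0.108 to 0.776). The ratio was 0.0967 (interval 0.0304 to 0.237). In 1 of the 67 pairs of Q5_vent an identifier held letters of the anchor, and without it the ratio was 0.0982. The input libraries had 3.54 to 4.98 per 1000, so that Q5_Q5 again lay apart from the other 5. Few pairs differed at 3 or more bases, 5 in Q5_vent and 1 in Q5_Q5. Q5_Q5 contained no sequence with 3 reads, and how far the minimum number of reads bears on these counts was not tested.

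Inserted and deleted bases in V were counted over all sequences, heavily mismatched ones included, for which the mismatch ratio was 0.816. Gap bases numbered 1056 in Q5_vent and 643 in Q5_Q5, a ratio of 0.786 (interval 0.711 to 0.867), but they come in runs. Counted as sequences with any gap, there were 144 and 88, a ratio of 0.792 (interval 0.601 to 1.04). Deletions of 1 base numbered 94 and 53, or 2.70 and 1.96 per 100000 aligned bases, a ratio of 0.727 (interval 0.509 to 1.03). Most lay at places shared with the input libraries, namely base 166 of Ighv3-2, with 26 in Q5_vent and 11 in Q5_Q5, base 167 of the same gene, with 18 and 25, and base 38 of Ighv1-27, with 11 and 10. The ratio of 0.727 includes these shared places, so it does not show how far deletions of 1 base elsewhere differ. Those were not compared apart. Insertions of 1 base numbered 12 and 10.

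CDR3 is the loop built across the V, D and J joins that contacts antigen, and TdT adds the bases between the segments. Of 40 CDR3 and junction features compared between the libraries, 7 had an interval that excluded 0. CDR3 length of productive sequences was 37.9 ± 6.81 bases (SD over sequences) in Q5_vent and 38.0 ± 6.85 in Q5_Q5, a difference of 0.114 (interval -0.0559 to 0.284). Bases between V and D numbered 4.61 and 4.59 on average, and bases between D and J 3.18 and 3.17. The share of G or C among these added bases was 66.0% and 65.9% between V and D, and 67.1% and 66.9% between D and J. V genes lacked 0.717 and 0.706 bases at the 3′ end. The features set by trimming of V and by TdT were thus nearly equal in the pair.

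Over all tags, missing J bases were the exception among trimming and insertion features. Productive sequences lacked 3.25 J bases at the 5′ end in Q5_vent and 3.02 in Q5_Q5, a difference of -0.234 (interval -0.303 to -0.165), and the others lacked 3.63 and 3.41. Primer tags were marked unclear in 12.9% of Q5_vent sequences and 8.21% of Q5_Q5 sequences. Sequences with an unclear primer tag lacked 7.48 J bases in Q5_vent and 7.45 in Q5_Q5, and those with a clear tag 2.74 and 2.73, so the libraries were nearly equal within each kind of tag. Without the unclear tags the difference in productive sequences was -0.0414 (interval -0.106 to 0.0236). Among Ighj2 sequences the mean was 3.50 and 3.02 over all tags and 1.87 and 1.88 over clear tags. Among Ighj3 sequences it was 2.82 and 2.45 over all tags and 2.11 and 2.10 over clear ones. The unclear tags were mostly of Ighj2, 72.5% in Q5_vent and 76.2% in Q5_Q5.

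The other features that stood apart were small when sequences of all read numbers were taken. Inserts of productive sequences were 3.26 bases longer in Q5_Q5 (interval 0.301 to 6.22), and CDR3 of the other sequences was 0.471 bases longer (interval 0.120 to 0.821). The productive share was 1.30 percentage points higher (interval 0.356 to 2.24) and stop codons were present in 13.2% of Q5_Q5 and 14.1% of Q5_vent. Without unclear tags the stop codon share was the only one of these 7 whose interval still excluded 0, at -0.763 percentage points (interval -1.51 to -0.0131). CDR3 net charge in productive sequences, at 0.0286 (interval -0.00192 to 0.0592) over all tags, was then 0.0344 (interval 0.00238 to 0.0665).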

How the data were processed

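Deduplicated VDJ-seq sequences of 6 libraries were analysed, 1 file per library. The mm10 build, Bowtie2 2.3.2 and Trim Galore 0.4.4 are named in the submitters' processing notes; the sources used here do not give the caller of V, D and J genes or any parameters. Identity to germline is, per the file headers, a fraction; positions and lengths are in bases. The number ending a sequence name was taken as its reads, an inference from the values. Sequences numbered 8704 to 112320, so a count of 0 allows up to 0.0345% to 0.00267% (3 counts of the total).

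Mismatches and gaps were read from the deposited alignment traces. For V mismatch rates, sequences with more than 2 V mismatches were set aside unless stated. J mismatches, gaps, junction features, tags and identifiers were counted over all sequences. A V gene was the first of its call, with alleles merged, and 12.0% of Q5_vent and 12.2% of Q5_Q5 calls named several. Rate ratios carry exact conditional 95% intervals, single rates Poisson, shares Wilson, differences of shares Newcombe and differences of means normal intervals. These cover counting error only, and reads are not independent molecules beyond the identifiers. No p-value was computed. Scripts were tested on simulated data. RefSeq coordinates (GRCm38.p6) were found for 135 of 176 V gene names.

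The members, lists and rules were chosen with earlier results of these data known. Genes named are the 10 with most aligned V bases, up to 10 called genes with the largest ratio, the 4 J genes and the 5 most mismatched V sites; others are said to be chosen afterwards. Alternatives chosen after seeing the data were leaving out V ends and recurrent sites together, each J gene in turn for V, and the first 6 or 10 aligned J bases. SciPy 1.17.1, NumPy 2.4.6, pandas 2.3.3 and matplotlib 3.10.9 ran under Python 3.11.15.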

Additional observations from a re-analysis of the deposited data

How the results depend on the processing

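With 1 library per group, no setting gives a replicate check, and polymerases, read support and any other difference between the 2 preparations cannot be told apart. No paired analysis was possible because each group has 1 library. The V mismatch rate ratio of 0.481 was below 1 under every setting run. It was 0.816 with heavily mismatched sequences included, 0.428 for sequences with 1 mismatch or none, 0.349 for V alignments of at least 150 bases, 0.396 without recurrent sites, 0.286 without 10 bases at each end and 0.190 without both. Leaving out each J gene in turn gave 0.462 to 0.491. Against 18 of 35 V genes called lower above, the counts were 10 of 14 without the ends and 9 of 9 without ends and recurrent sites. They were 8 of 13 for alignments of at least 150 bases and 11 of 22 for productive sequences only. With a minimum of 40 mismatches 4 of 9 were called lower, and with a minimum of 10, 22 of 64. With heavily mismatched sequences included, 24 of 60 genes were called lower and 3 higher. In bins of 50 bases, 6 of 6 bins lay below 1. The productive ratio over the other ratio went from 0.738 to 1.13 without ends and recurrent sites, where its interval of 0.721 to 1.77 includes 0.738. The cause was not tested. The gap ratio was 0.889 with at least 5 reads. The J ratio was 0.587 without the first 6 aligned J bases and 0 without the first 10 (interval up to 1.93), where 4 mismatches were left. Junction features apart from 0 numbered 2 without unclear tags and 12 with at least 5 reads. The difference in missing J bases of other sequences went from -0.221 to 0.0846 without unclear tags, with an interval of -0.0259 to 0.195. Depth limits Q5_Q5 most, with 115 scattered mismatches.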
